A study of Mus musculus with 6 samples.

Results

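The 30 genes described here mark the ganglionic eminences, the ventral germinal zones of the embryonic forebrain, and the GABAergic interneurons and striatal neurons born there. They were chosen by name, and all 30 symbols were found among the 33084 Ensembl genes of the deposited count table. They were measured in whole forebrain RNA of mouse embryos at embryonic day 15.5, from 3 Dyrk1a+/- embryos and 3 wild-type (wt) embryos, which the labels give as biological replicates of the Dyrk1a+/- line. Dyrk1a encodes a dual-specificity kinase, and the series title describes full inactivation of the gene in the heterozygotes. As Dyrk1a+/- embryos they keep a wild-type copy, and all their libraries held Dyrk1a RNA, as given below. How the allele was made, the strain, the litters and any pooling of embryos are not described in the labels.

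The ganglionic eminences lie below the cortex and are divided into medial, lateral and caudal parts. Homeodomain factors of the Gsx and Dlx families set up the GABAergic fate there. Nkx2-1 and then Lhx6 direct the medial lineage, which yields somatostatin interneurons, while Nr2f2, Sp8 and Prox1 mark the caudal lineage and Meis2 and Ebf1 the lateral lineage with its striatal neurons. Young interneurons leave the eminences and migrate tangentially into the cortex, guided in part by the chemokine Cxcl12. Several of the 30 genes are also used by cells of the hypothalamus, thalamus or cortex, so whole forebrain levels are sums over regions. In such tissue fewer cells of a type and less RNA per cell cannot be told apart.

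By edgeR's quasi-likelihood test none of the members had an adjusted p (Benjamini-Hochberg) under 0.05, where 0.0103% of all 19403 genes tested did, and DESeq2 called none of the members either. The neuropeptide genes Sst and Npy had the lowest p among the members, at 0.715 and 0.731 of the wt mean in Dyrk1a+/- forebrains. The nuclear receptor gene Nr2f1 and the zinc finger homeobox gene Zfhx3 came next, at 1.16 and 1.18 times the wt mean. In these 4 of 29 tested members (13.8%) the Dyrk1a+/- and wt libraries did not overlap, near the 14.0% of all genes tested. The other tested transcription factors of the lineages had log2 fold changes between -0.14 for Lhx8 and 0.46 for Gsx2.

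The promoters of Sst and Npy are shown because these neuropeptide genes lay lowest in Dyrk1a+/- forebrains relative to wt. Sequences are the 250 bases before the RefSeq start on GRCm38.p6, read 5′ to 3′ on the gene's strand, at chr16:23890845-23891094 (minus strand) for Sst and chr6:49822460-49822709 (plus strand) for Npy. Capitals mark matches to TGACGTCA, the palindromic cAMP response element, in Sst and to CCAAT on the minus strand, which reads ATTGG here, in Npy.
Sst: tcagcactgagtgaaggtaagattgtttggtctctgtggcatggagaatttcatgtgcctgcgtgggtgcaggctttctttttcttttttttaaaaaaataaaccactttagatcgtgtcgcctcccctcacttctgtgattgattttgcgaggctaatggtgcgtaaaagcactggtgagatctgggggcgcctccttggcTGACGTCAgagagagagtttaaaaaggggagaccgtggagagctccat
Npy: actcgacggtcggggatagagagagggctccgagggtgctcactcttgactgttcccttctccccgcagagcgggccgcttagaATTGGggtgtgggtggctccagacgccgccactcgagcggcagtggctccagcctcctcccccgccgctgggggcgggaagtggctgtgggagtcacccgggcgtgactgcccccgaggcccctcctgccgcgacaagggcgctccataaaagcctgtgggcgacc
The element in Sst begins 48 bases before the start. RefSeq promoters were found for 25 of the 30 members, 43 windows of 300 bases in all, and not for Dlx5, Dlx6, Calb1, Calb2 and Maf. Searched on both strands of these windows, TGACGTCA was in Sst alone, against 1.79% of all 32851 promoter windows. The letters TAATTA, a homeodomain core, were in a window of Foxp1 and of Sp8, against 5.29% of all windows. TATAAA was in 9 of the 43 windows, against 13.6% of all, and CCAAT in 17 of them, against 37.4%. These are matches of letters, and nothing here measured binding.

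The libraries held between 18699434 and 25012356 counts in Dyrk1a+/- and between 25270710 and 32865708 in wt. Values are CPM, a count scaled to the TMM-adjusted library size, and CPM per kilobase of summed exon length where levels of different genes are compared. Dyrk1a was at 148, 147 and 158 CPM in Dyrk1a+/- and at 176, 186 and 160 CPM in wt (log2 fold change -0.20, SE 0.079; edgeR, Benjamini-Hochberg adjusted p = 0.59). Dyrk1a+/- replicate 2 and wt replicate 3 stood apart from the 4 other libraries on the first principal component, with 34.3% of the variance. The summed share of 7SK with the RNAs of RNase P and MRP was 4% in that Dyrk1a+/- library and 4.46% in that wt library, and 2.57% to 3.01% elsewhere. Hox genes of the hindbrain and spinal cord were almost absent, with 7 of 10 listed ones in the table, 2 of these at 0 counts and the highest at 0.402 CPM in any library.

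Per kilobase of exon, Meis2 was the most abundant member, at 27 ± 2.16 CPM per kilobase in Dyrk1a+/- and 25.4 ± 3.13 in wt (SD, n = 3 each). Next in the wt order came Sst, Nr2f1, Calb2, Erbb4, Dlx1, Cxcr4 and Npy. Sst was at 15.1 ± 1.34 CPM per kilobase in Dyrk1a+/- and 21.2 ± 1.39 in wt, and Nr2f1 at 24.1 ± 1.73 in Dyrk1a+/- and 20.7 ± 0.304 in wt (SD, n = 3 each). Six3, Gsx2 and Gsx1 were lowest, and Gsx1 was at 0.312 ± 0.199 CPM per kilobase in Dyrk1a+/- and 0.208 ± 0.03 in wt (SD, n = 3 each). Of the 29 pairs of neighbours in the wt order, 20 overlapped over the 3 wt libraries, so most neighbours do not differ beyond their spread. The order was nearly the same in Dyrk1a+/-, where no member moved by more than 3 ranks.

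**Figure D1:**
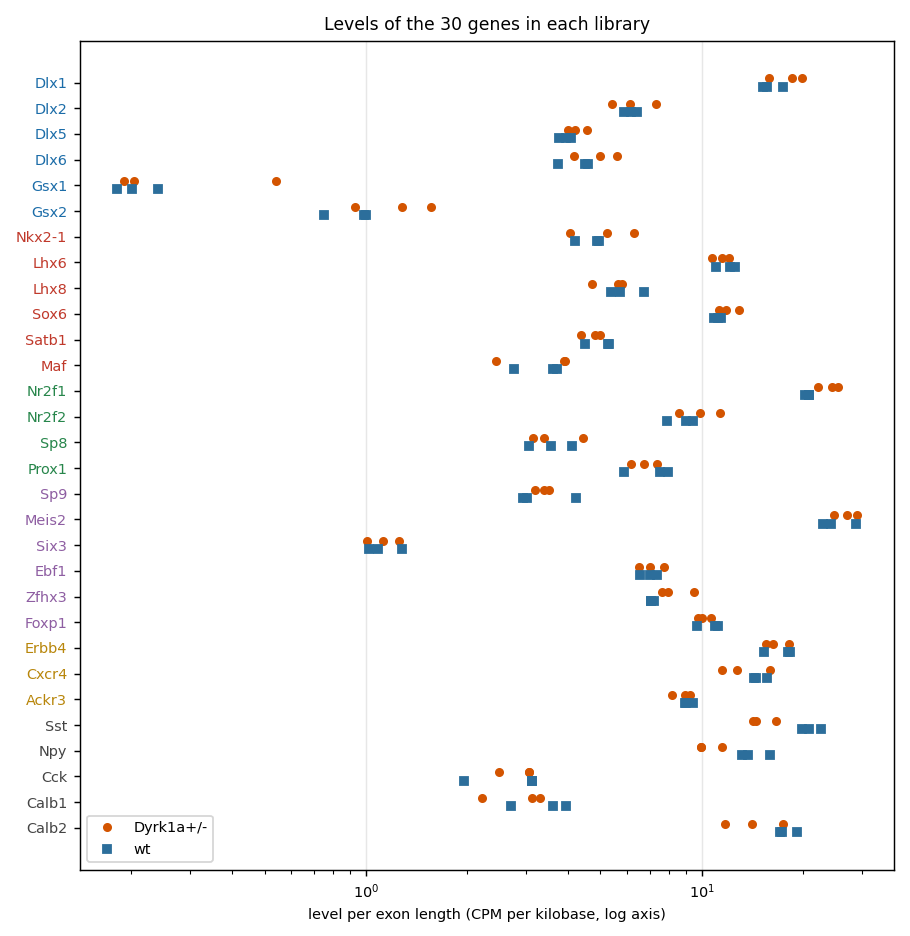
Levels of the 30 genes in every library, in CPM per kilobase of exon on a log axis, with Dyrk1a+/- libraries as circles and wt libraries as squares; gene names are coloured by role, from the Dlx and Gsx factors at the top to the neuropeptides and calcium-binding proteins at the bottom. Levels run from Gsx1 below 1 to Meis2 above 20 CPM per kilobase. The genotypes do not overlap in 13.8% of the tested members (Sst, Npy, Nr2f1 and Zfhx3), against 14.0% of all genes tested.

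Of the 30 members 29 had enough counts to be tested, and the untested Gsx1, a progenitor homeodomain factor, had 7, 9 and 18 counts in Dyrk1a+/- and 14, 9 and 9 in wt. In Dyrk1a+/- 15 of the 29 were higher and 14 lower, and their median difference on the log2 scale was 0.021. Over all genes tested 48.8% were lower and the median was 0.0048. At an unadjusted p under 0.05 were 4 members, 2 higher and 2 lower (13.8% of the members tested), where 7.88% of all genes were. The genotypes did not overlap in the same number of members, 4 of 29, against 14.0% of all genes tested (6.53% with Dyrk1a+/- higher and 7.49% with it lower); 2 of the members lay each way. Of the 29, 24 had a log2 fold change within 0.25 of 0, and the 5 outside were Sst, Npy, Calb2, Calb1 and Gsx2. Over the 29 members the 95% intervals lay between -0.76 and 1.03, with standard errors of 0.075 to 0.25.

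**Figure D2:**
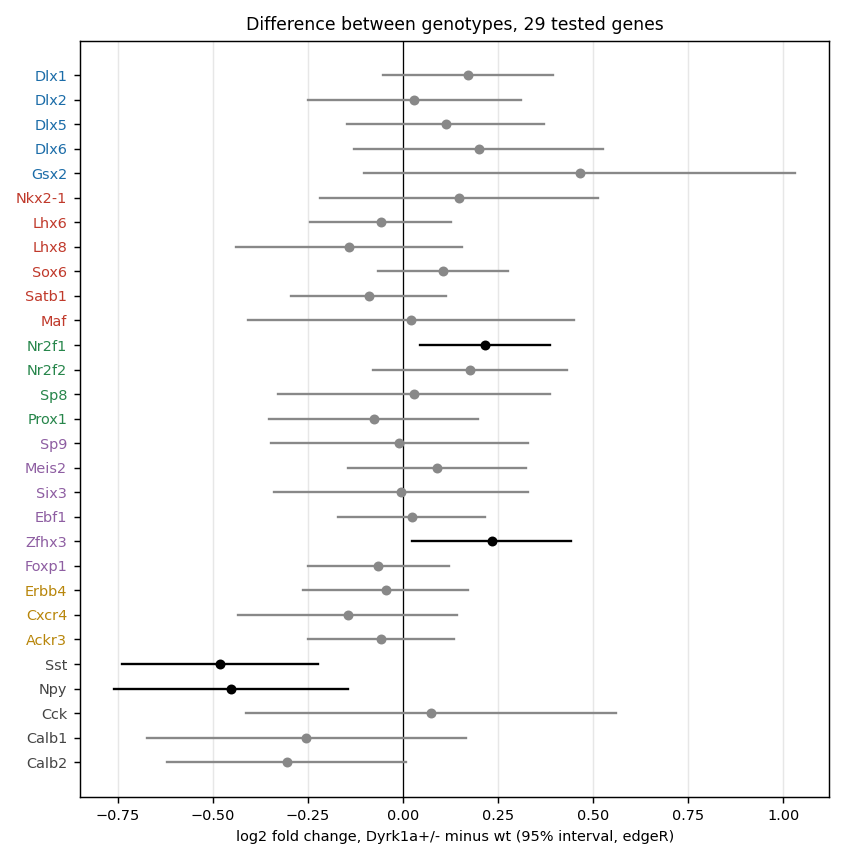
Log2 fold change of the 29 tested genes, Dyrk1a+/- minus wt, with the 95% interval from edgeR; black marks an unadjusted p under 0.05, and gene names are coloured by role. Sst and Npy lie at -0.48 and -0.45, Nr2f1 and Zfhx3 at 0.22 and 0.23, and no gene passes the adjusted threshold.

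Sst, the precursor of somatostatin and the marker peptide of a main interneuron class of the medial eminence, had 10.2, 12 and 10.5 CPM in Dyrk1a+/- and 14.4, 15.1 and 16.4 CPM in wt. Every Dyrk1a+/- library lay below every wt library. On the log2 scale the difference was -0.48, with SE 0.114 and a 95% interval of -0.74 to -0.22 (Benjamini-Hochberg adjusted p = 0.483 by edgeR), resting on 197 to 299 counts per Dyrk1a+/- library and 380 to 472 per wt library. An exact 2-sided permutation test of log2 CPM gave p = 0.1, the lowest value possible with 3 libraries a group. The pair of libraries that stood apart gave a log2 CPM difference of -0.44, and the 4 others gave -0.51. The adjusted p over the alternative settings ran from 0.0992, with a term for that pair, to 0.999, without Dyrk1a+/- replicate 3. In this last setting no member had an adjusted p below 0.999, and the log2 fold change of Sst was -0.46. With 1 library left out it ran from -0.56 to -0.43. Sst (ENSMUSG00000004366) lies on GRCm38 chromosome 16, the chromosome that also carries Dyrk1a, from 23889573 to 23890958.

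Npy, the precursor of neuropeptide Y, found in a subset of the same interneurons, had 6.51, 5.63 and 5.65 CPM in Dyrk1a+/- and 7.8, 7.49 and 9.05 CPM in wt. The 3 Dyrk1a+/- libraries again all lay below the 3 wt libraries. On the log2 scale this was -0.45, with SE 0.136 (Benjamini-Hochberg adjusted p = 0.503 by edgeR), at -0.68 in the pair of libraries alone and -0.33 in the 4 others. With 1 library left out the value ran from -0.53 to -0.37. Cck, the cholecystokinin precursor, which cortical and other neurons also make, was at 3.75 ± 0.43 CPM in Dyrk1a+/- and 3.57 ± 0.877 CPM in wt (SD, n = 3 each). Its genotypes overlapped, and the log2 fold change was 0.07 (SE 0.215).

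The calcium-binding proteins calretinin and calbindin had lower means in Dyrk1a+/- with overlapping libraries. Calb2, the calretinin gene, had 24.7, 30.4 and 20.4 CPM in Dyrk1a+/- and 29.9, 30.2 and 33.5 CPM in wt. Dyrk1a+/- replicate 2 lay within the wt range and the other two below it. On the log2 scale this was -0.31, with SE 0.138 (Benjamini-Hochberg adjusted p = 0.643 by edgeR), with -0.18 without Dyrk1a+/- replicate 3 and -0.47 without replicate 2. Calb1, the calbindin gene, had 15.1, 10.7 and 16 CPM in Dyrk1a+/- and 17.5, 19.2 and 13.1 CPM in wt, with a log2 fold change of -0.25 (SE 0.185) that ran from -0.40 to -0.09 with 1 library left out. Its lowest value in either genotype was in the pair of libraries that stood apart.

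**Figure D3:**
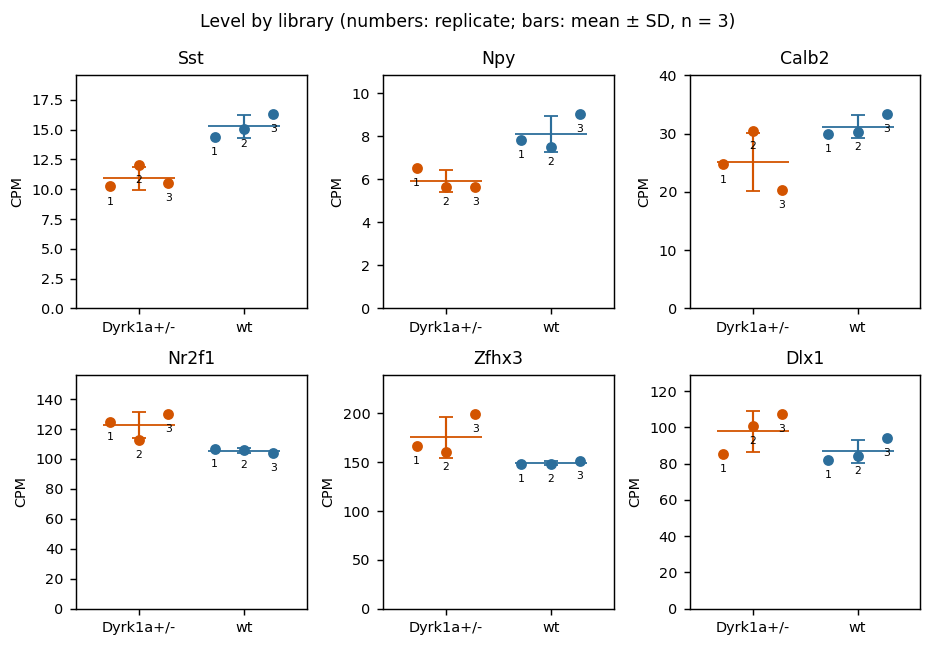
CPM of 6 of the genes in each library, Dyrk1a+/- on the left and wt on the right of each panel, with the replicate number under each point and bars for the mean ± SD (n = 3). Sst and Npy are lower and Nr2f1 and Zfhx3 higher in every Dyrk1a+/- library than in any wt library, while Calb2 and Dlx1 overlap.

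The factors of the medial eminence, from which Sst cells come, overlapped between the genotypes. Nkx2-1, which specifies the medial eminence and is also made in the hypothalamus, had 14.9, 11.5 and 17.9 CPM in Dyrk1a+/- and 13.9, 14 and 11.95 CPM in wt. Its log2 fold change was 0.15 (SE 0.161). Lhx6, the LIM homeodomain factor that acts after Nkx2-1 and is kept by migrating interneurons, had 51.6, 58.2 and 55.2 CPM in Dyrk1a+/- and 58.4, 53.1 and 60.4 CPM in wt. The genotypes overlapped, and the log2 fold change was -0.06 with a 95% interval of -0.24 to 0.13. Lhx8, which with Nkx2-1 directs cholinergic neurons, was at 13.6 ± 1.51 CPM in Dyrk1a+/- and 15.1 ± 1.82 CPM in wt (SD, n = 3 each).

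The factors that act later in the medial lineage also overlapped between the genotypes. Sox6, needed for the placement and maturation of these interneurons, had 167, 175 and 192 CPM in Dyrk1a+/- and 161, 170 and 166 CPM in wt, with a log2 fold change of 0.11 (SE 0.076) that was 0.048 without Dyrk1a+/- replicate 3. Satb1, a chromatin organiser that promotes somatostatin expression, was at 89.9 ± 6.12 CPM in Dyrk1a+/- and 95.7 ± 8.64 CPM in wt (SD, n = 3 each). Maf, a basic leucine zipper factor of the same lineage, was at 28.1 ± 6.98 CPM in Dyrk1a+/- and 27.7 ± 4.29 CPM in wt (SD, n = 3 each). Of these 6 medial factors 3 had higher and 3 had lower estimates, and the median on the log2 scale was -0.02.

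The Dlx genes, which drive GABAergic differentiation and migration, lay within 0.20 of 0 on the log2 scale. Dlx1 had 85.6, 101 and 107 CPM in Dyrk1a+/- and 82.1, 84.4 and 94 CPM in wt, with a log2 fold change of 0.17 (SE 0.099, 95% interval -0.05 to 0.40). It was 0.099 without Dyrk1a+/- replicate 3 and 0.26 without replicate 1. Dlx2, its neighbour on chromosome 2, had 15.5, 17.5 and 20.9 CPM in Dyrk1a+/- and 16.8, 18.4 and 17.6 CPM in wt. For both genes Dyrk1a+/- replicate 3 was the highest library and the genotypes overlapped. Dlx5 had 10.3, 9.49 and 9.06 CPM in Dyrk1a+/- and 8.5, 8.95 and 9.27 CPM in wt, with a log2 fold change of 0.11 (SE 0.114) that was 0.059 without Dyrk1a+/- replicate 1. Dlx6, the neighbour of Dlx5 on chromosome 6, had 11.8, 9.89 and 13.3 CPM in Dyrk1a+/- and 8.87, 10.7 and 10.9 CPM in wt, with a log2 fold change of 0.20 (SE 0.145). It was 0.096 without Dyrk1a+/- replicate 3, 0.11 without wt replicate 1 and 0.31 without Dyrk1a+/- replicate 2. Neither of these genes separated the genotypes.

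Gsx2, the progenitor factor of the lateral eminence, had 1.54, 2.13 and 2.61 CPM in Dyrk1a+/- and 1.25, 1.66 and 1.65 CPM in wt. Dyrk1a+/- replicate 1 lay within the wt range and the other two above it. The log2 fold change of 0.46 was the largest upward value among the tested members and also the least certain (SE 0.25; Benjamini-Hochberg adjusted p = 0.708 by edgeR). It ran from 0.28 without Dyrk1a+/- replicate 3 to 0.64 without replicate 1. All 5 tested Dlx and Gsx genes had positive values, and none was at an unadjusted p under 0.05. Beside these Dlx and Gsx genes, all 12 genes of a proliferation list were higher at an unadjusted p under 0.05, where 3.27% of all genes tested were. The list holds Mki67 and Top2a, and its summed levels were 1210 to 1485 CPM in Dyrk1a+/- and 953 to 1073 CPM in wt. By adjusted p edgeR called 0 of the 12, against 0.0103% of all genes tested, and DESeq2 called 2, Tpx2 and Mki67, against 0.17%. The part of this in the values of Gsx2 and the Dlx genes was not tested.

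Among the factors of the caudal eminence, Nr2f1 had 125, 113 and 130 CPM in Dyrk1a+/- and 106, 106 and 104 CPM in wt. This orphan nuclear receptor, COUP-TFI, also patterns the cortex. Every Dyrk1a+/- library was above every wt library, with a log2 fold change of 0.22, SE 0.075 and a 95% interval of 0.05 to 0.39 (Benjamini-Hochberg adjusted p = 0.548 by edgeR). The pair of libraries alone gave a log2 CPM difference of 0.12, and the 4 others gave 0.26. The related Nr2f2, COUP-TFII, had 85.2, 74.1 and 97.8 CPM in Dyrk1a+/- and 81.5, 77.7 and 68.1 CPM in wt, overlapping, with a log2 fold change of 0.18 (SE 0.113) that was 0.07 without Dyrk1a+/- replicate 3, 0.11 without wt replicate 3 and 0.27 without Dyrk1a+/- replicate 2. Sp8, a zinc finger factor of caudal and lateral interneurons, was at 16.7 ± 3.08 CPM in Dyrk1a+/- and 16.3 ± 2.38 CPM in wt (SD, n = 3 each). Prox1, a homeobox factor of caudal interneurons and also of dentate granule cells, was at 56.6 ± 5.14 CPM in Dyrk1a+/- and 59.7 ± 9.15 CPM in wt (SD, n = 3 each).

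Zfhx3, a large zinc finger homeobox factor of striatal and hypothalamic neurons, had 166, 160 and 200 CPM in Dyrk1a+/- and 148, 148 and 151 CPM in wt. All Dyrk1a+/- libraries were above all wt libraries, and replicate 3 stood highest. On the log2 scale this was 0.23, with SE 0.092 (Benjamini-Hochberg adjusted p = 0.591 by edgeR), at 0.08 in the pair of libraries alone, 0.30 in the 4 others and 0.13 without Dyrk1a+/- replicate 3. Without that library neither Zfhx3 nor Nr2f1 was at an unadjusted p under 0.05, and only Sst and Npy of the members were, where 4.25% of all genes were. The transcript Gm38042, on the same strand within Zfhx3, held 7372 counts against 23989 for Zfhx3 and had a log2 fold change of 0.23 (SE 0.076).

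The other factors of the lateral eminence and striatum overlapped between the genotypes. Meis2, a TALE homeodomain factor of striatal and olfactory precursors, was at 325 ± 26 CPM in Dyrk1a+/- and 306 ± 37.7 CPM in wt (SD, n = 3 each). Sp9, which acts with Sp8 in the lateral eminence, was at 17 ± 0.842 CPM in Dyrk1a+/- and 17.1 ± 3.64 CPM in wt (SD, n = 3 each). Ebf1, a factor of striatonigral neurons, was at 69.2 ± 5.96 CPM in Dyrk1a+/- and 68.1 ± 3.9 CPM in wt (SD, n = 3 each). Six3, a homeobox factor of the anterior forebrain and striatal neurons, was at 6.15 ± 0.657 CPM in Dyrk1a+/- and 6.17 ± 0.722 CPM in wt (SD, n = 3 each). Foxp1, a forkhead factor of striatal and cortical projection neurons, was at 140 ± 6.76 CPM in Dyrk1a+/- and 146 ± 11.5 CPM in wt (SD, n = 3 each). The log2 fold changes of these 5 ran from -0.06 for Foxp1 to 0.09 for Meis2.

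The 3 receptors of migrating interneurons had small negative values. Erbb4, the neuregulin receptor, was at 207 ± 17.3 CPM in Dyrk1a+/- and 213 ± 20.2 CPM in wt (SD, n = 3 each). Cxcr4, the signalling receptor for Cxcl12, was at 24.2 ± 4.27 CPM in Dyrk1a+/- and 26.8 ± 1.35 CPM in wt (SD, n = 3 each). Its log2 fold change of -0.15 (SE 0.127) was -0.048 without Dyrk1a+/- replicate 3 and -0.29 without replicate 1. Ackr3, the atypical receptor that takes up Cxcl12, was at 29.4 ± 1.9 CPM in Dyrk1a+/- and 30.6 ± 0.91 CPM in wt (SD, n = 3 each). Cxcl12, the ligand gene of Cxcr4 and Ackr3 and no member, was at 41.2 ± 3.86 CPM in Dyrk1a+/- and 45.3 ± 1.84 CPM in wt (SD, n = 3 each). In all 4 of these genes the genotypes overlapped.

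Many members also varied with the pair of libraries that stood apart. In 11 of 29 tested members, or 37.9%, both Dyrk1a+/- replicate 2 and wt replicate 3 lay below all 4 other libraries, where 18.3% of all genes tested did so. These were Nkx2-1, Satb1, Maf, Nr2f2, Sp8, Prox1, Six3, Ebf1, Foxp1, Erbb4 and Calb1, none of the Dlx or Gsx genes. In Maf the pair had 20.1 and 22.7 CPM, in Dyrk1a+/- and wt in turn, and the 4 others 29.7 to 32.2 CPM. Calb2 was the only tested member in which both libraries of the pair lay above the others, against 16.1% of all genes. With a term for the pair in the model 8 members were at an unadjusted p under 0.05, where 15.7% of all genes were: Sst, Npy, Calb1 and Calb2 lower, and Dlx1, Nr2f1, Nr2f2 and Zfhx3 higher. On the 4 other libraries alone 6 were, Sst and Calb2 lower and Dlx6, Nr2f1, Nr2f2 and Zfhx3 higher, where 12.9% of all genes were. In these fits none passed edgeR's adjusted threshold.

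**Figure D4:**
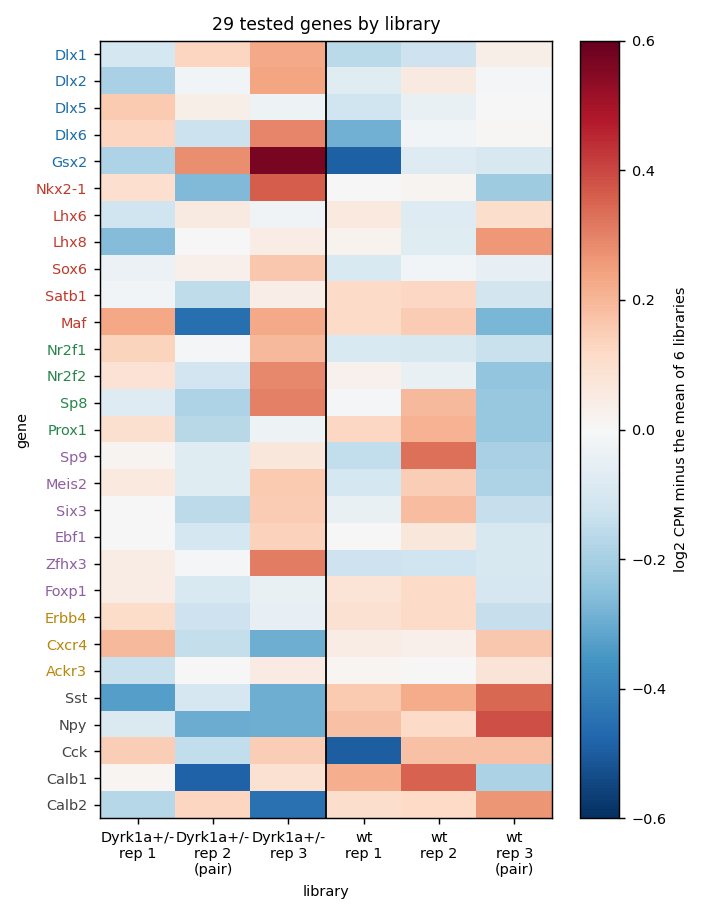
Log2 CPM of the 29 tested genes minus the mean of the 6 libraries, with the Dyrk1a+/- libraries left of the line and wt libraries right of it, and the pair that stood apart marked; gene names are coloured by role. The 11 genes lowest in both libraries of the pair include Maf and Nkx2-1, while Sst and Npy are blue in all Dyrk1a+/- libraries and red in all wt libraries.

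Several members share their locus with a transcript on the opposite strand. The library kit marks strand, yet the strand setting of the counting is not stated in the sources used here, and the reads of such partners may be mixed. Dlx1as overlaps Dlx1, with 3247 counts against 13745 for Dlx1, and Dlx6os1 overlaps Dlx6, with 43104 counts against 1605. For Nr2f1 the antisense gene A830082K12Rik held 3923 counts against 16909, with a log2 fold change of 0.03 (SE 0.093), and Nr2f1 itself had 0.22. Six3os1 had 6149 counts against 919 for Six3, with a log2 fold change of 0.21 (SE 0.078). B130024G19Rik had 4287 against 11979 for Nr2f2, at 0.10 (SE 0.085). Dlx6os2, also opposite to Dlx6, had 3237 counts and 0.27 (SE 0.123), while Dlx6os1 was at 0.05 (SE 0.109). Prox1os had 221 counts against 8757 for Prox1, at 0.56 (SE 0.228). No gene of the table overlaps Sst or Npy.

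A list of 38 other genes of the eminences and their interneurons, 39 identifiers in the table since Dlx6os1 has 2, was set beside the members. Of 37 tested, 16 were higher in Dyrk1a+/- and 21 were lower, and the median on the log2 scale was -0.08. None passed edgeR's or DESeq2's adjusted threshold. At an unadjusted p under 0.05 were 7, 2 higher and 5 lower, where 3.27% of all genes were higher and 4.61% lower at that threshold. Vip and Pvalb, peptide and calcium-binding markers of mature interneurons, had too few counts to test.

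The genes that define GABAergic transmission had estimates of both signs. Gad1, which makes GABA, had 103, 97.7 and 101 CPM in Dyrk1a+/- and 115, 108 and 103 CPM in wt, separated by a narrow margin, with a log2 fold change of -0.12 (SE 0.071). Gad2, the second GABA-synthesising enzyme, had 119, 124 and 124 CPM in Dyrk1a+/- and 116, 124 and 116 CPM in wt, with a log2 fold change of 0.05 (SE 0.068, overlapping). Slc32a1, the vesicular GABA transporter, was at 24.6 ± 2.45 CPM in Dyrk1a+/- and 27.6 ± 2.13 CPM in wt (SD, n = 3 each).

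Of the other listed genes the lowest p was that of Cdca7, which is made in progenitors and tied to the cell cycle, with 78.8, 85.3 and 86.6 CPM in Dyrk1a+/- and 60, 68.9 and 69.8 CPM in wt. The libraries did not overlap (log2 fold change 0.34, SE 0.083; edgeR, Benjamini-Hochberg adjusted p = 0.483). Dlx1as, the antisense RNA of Dlx1, had 21.5, 26.8 and 24.3 CPM in Dyrk1a+/- and 19.7, 19 and 19.8 CPM in wt, again without overlap (0.31, SE 0.103). It also overlaps Metap1d, on the strand opposite to Dlx1as, whose log2 fold change was 0.74 (SE 0.193), so its reads may not be its own. Elfn1, a synaptic adhesion protein of somatostatin interneurons, had 7.09, 7.48 and 6.77 CPM in Dyrk1a+/- and 8.84, 9.91 and 9.34 CPM in wt. Npas1, a bHLH-PAS factor of interneurons and of pallidal neurons, had 2.85, 2.85 and 1.49 CPM in Dyrk1a+/- and 3.63, 4.48 and 3.94 CPM in wt. All Dyrk1a+/- libraries were below all wt libraries in both genes, with log2 fold changes of -0.39 (SE 0.117) and -0.73 (SE 0.244; -0.49 without Dyrk1a+/- replicate 3).

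**Figure D5:**
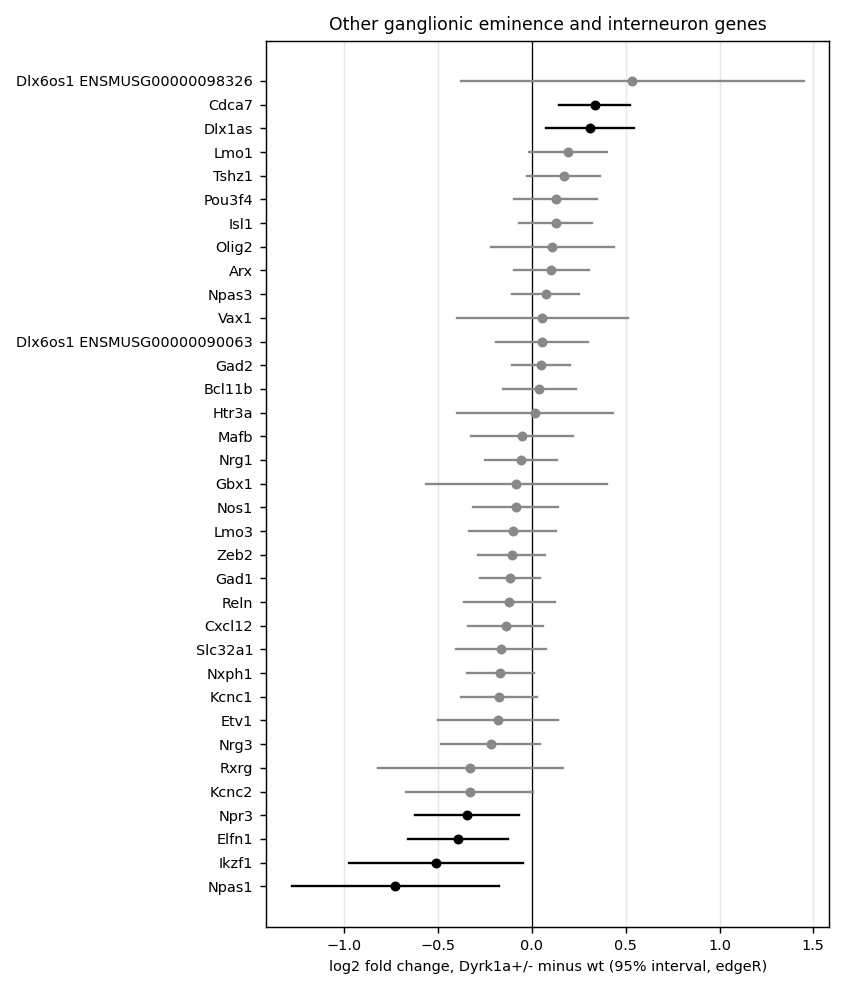
Log2 fold change of 35 of the 37 tested genes of the other eminence and interneuron list, Dyrk1a+/- minus wt, with the 95% interval from edgeR, ordered by size; black marks an unadjusted p under 0.05. Cdca7 and Dlx1as lie highest among the black points, at 0.34 and 0.31, and Npas1 lowest at -0.73.

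Markers of other cells were summed beside these values. All 6 genes of oligodendrocyte precursors, cells that also come from the eminences, were lower, with summed levels of 135 to 174 CPM in Dyrk1a+/- and 205 to 218 CPM in wt. Olig2, which stood in the other list and not in this one, overlapped. It was at 9.52 ± 1.03 CPM in Dyrk1a+/- and 8.85 ± 1.25 CPM in wt (log2 fold change 0.11, SE 0.145). All 6 erythroid genes were lower too, at 491 to 712 CPM in Dyrk1a+/- and 729 to 932 CPM in wt, and 8 of 10 meningeal genes were lower, at 417 to 464 CPM in Dyrk1a+/- and 489 to 574 CPM in wt. Of 16 tested markers of diencephalon, hypothalamus and midbrain 15 were higher, with summed levels of 205 to 290 CPM in Dyrk1a+/- and 185 to 214 CPM in wt, highest in Dyrk1a+/- replicate 3. Of these lists edgeR and DESeq2 both called 1 gene by adjusted p, the meningeal marker Ptgds, at a log2 fold change of -1.15. At an unadjusted p under 0.05 were 4 oligodendrocyte precursor, 3 erythroid and 4 meningeal genes, all lower, and 2 diencephalic, hypothalamic or midbrain genes, both higher. Over all genes tested 4.61% were lower and 3.27% higher at that threshold. No listed endothelial, mural or choroid plexus marker reached it. The summed levels of the pallial glutamatergic markers overlapped, at 1032 to 1161 CPM in Dyrk1a+/- and 1028 to 1145 CPM in wt. Of the 12 genes, 1 lay above and 2 below wt without overlap, where 6.53% and 7.49% of all genes tested did. In Dyrk1a+/- 1 of them was higher and 1 lower at an unadjusted p under 0.05. None of the genes in these lists was at 0 in all libraries. The part of these levels in the values of Sst, Npy, Nr2f1 and Zfhx3 was not tested.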

How the data were processed

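Single-end RNA sequencing of 6 forebrains was used, grouped and numbered as their titles say. The authors deposited raw counts per Ensembl gene, 1 column per library. Per the submitters' processing notes, the tools were HISAT2, SAMtools 1.9, HTSeq 0.9.1 and bcl2fastq 2.17.1.14, and the build was GRCm38 (mm10). For the strand setting and annotation release, the sources used here give nothing. Per the labels the molecule was polyA RNA, while the kit was one for total RNA with ribosomal depletion.

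Symbols, positions and exon lengths came from GENCODE M21, which matched 32888 of 33084 identifiers. In R 4.3.3, edgeR 4.0.16 kept 19403 genes by filterByExpr, scaled libraries by TMM and fitted genotype alone by quasi-likelihood, adjusting p by Benjamini-Hochberg across every gene tested, with 0.05 as the threshold. Standard errors come from its F statistic. DESeq2 1.42.0 was an alternative. Single genes were also compared by exact permutation of log2(CPM + 0.01). The fit was tested on simulated counts. At the adjusted threshold it called 42% of 50 genes changed 1.5-fold and 82% of 50 changed 2-fold. Of its 176 calls, 14 were unchanged genes. The chi-square between any 2 libraries, per degree of freedom, was 4.55 or more, above sampling noise, so all 6 were kept. Each library's counts cover counting error only. The edgeR p-values set the genotype difference against the spread among libraries of a genotype, which the fit moderates over all genes.

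All members are named. Values by library are given for the Dlx genes, Nkx2-1, Lhx6, Sst, Npy and the 10 members of lowest p; of the other list, for Gad1, Gad2 and the 4 genes of lowest p, with means for Slc32a1 and Cxcl12. Members and lists were chosen with earlier results of these data known. The library pair was treated as a setting after the data were seen. Other genes named were chosen after their values were seen, as overlapping or marker genes. A few listed genes are counted but not reported here by name.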

Additional observations from a re-analysis of the deposited data

How the results depend on the processing

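None of the 29 tested members passed the adjusted threshold under any of the 15 alternative settings, and 414 of 435 member values kept their direction. Of all genes tested, 2 passed edgeR as reported, 27 with DESeq2, 4 with no low-count filter, 0 with the replicate block (1110 at an unadjusted p under 0.05), 6 with a term for the library pair, 6 on the 4 other libraries, and 0 to 5 with 1 library left out (0 without Dyrk1a+/- replicate 1, 0 without replicate 3, 0 without wt replicate 1 and 0 without wt replicate 2, by edgeR, with 812 to 1584 at an unadjusted p under 0.05). Members at an unadjusted p under 0.05 numbered 4 as reported, 2 with the replicate block, 8 with the pair term and 2 to 6 with 1 library left out. For the other list they numbered 7, 16 with the pair term, 15 on the 4 other libraries and 3 to 10 with 1 library left out, 3 without wt replicate 2. The share of all genes at that threshold moved too, from 7.88% as reported to 5.72% with the replicate block and 15.7% with the pair term. It was 12.9% on the 4 other libraries and 4.11% to 10.5% with 1 library left out.

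Deviations of same-numbered libraries correlated at 0.19, -0.32 and -0.15 across genes, against 0.44 for the pair that stood apart. With 3 libraries a group this cannot tell whether replicate numbers pair the samples. The labels state no pairing, so the block is given here only, and it called no member.

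Signs turned in 10 members. Six3 was at 0.00061 with DESeq2, 0.00083 with library sizes without mitochondrial, globin and 7SK-like RNA and 0.0083 on the 4 other libraries, and Sp9 at 0.0059 with the replicate block. With 1 library left out, Six3 ran from -0.085 to 0.088, Sp9 from -0.10 to 0.17, Maf from -0.10 to 0.22, Dlx2 from -0.091 to 0.13, Sp8 from -0.13 to 0.14, Ebf1 from -0.045 to 0.080, Nkx2-1 from -0.012 to 0.30, Erbb4 from -0.12 to 0.0051, Prox1 from -0.20 to 0.0074 and Cck from -0.12 to 0.18. Of the other members, Cxcr4, Sox6, Dlx1, Dlx5, Dlx6 and others moved by over 1.5 times with their sign kept. The members' median ran from -0.05 to 0.09. The causes were not tested. Gsx1, with 7 to 18 counts per library, had too few to test.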

Other observations

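Within a library, Sst can be set against Lhx6, which the same lineage expresses; these ratios were chosen after the values were seen. Sst CPM per Lhx6 CPM was 0.198, 0.207 and 0.19 in Dyrk1a+/- and 0.246, 0.284 and 0.271 in wt, without overlap. Npy per Lhx6 was 0.126, 0.0968 and 0.102 in Dyrk1a+/- and 0.134, 0.141 and 0.15 in wt, also without overlap. Lhx6 per Gad2 overlapped, at 0.448 ± 0.019 in Dyrk1a+/- and 0.484 ± 0.05 in wt (SD, n = 3 each). The exact 2-sided permutation p was 0.1 for the Sst and Npy ratios to Lhx6, the smallest that 3 against 3 libraries allow, and 0.4 for Lhx6 per Gad2. Sst and Npy already separated the genotypes and Lhx6 differed little, so the separation of their ratios is no independent test. The ratios do not depend on library scaling.

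Further listed genes at an unadjusted p under 0.05 were lower in Dyrk1a+/- as well. Npr3, a natriuretic peptide receptor, was at 10.8 ± 1.22 CPM in Dyrk1a+/- and 13.8 ± 0.909 CPM in wt, and Ikzf1, a zinc finger factor, at 4.61 ± 1.32 CPM in Dyrk1a+/- and 6.59 ± 0.606 CPM in wt (SD, n = 3 each). In both the Dyrk1a+/- libraries lay below the wt libraries.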
